A study of Mus musculus with 10 samples.

Results

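The EGR transcription factors and their NAB corepressors are 6 genes, Egr1, Egr2, Egr3, Egr4, Nab1 and Nab2, taken by gene name out of 24391 gene names counted in the mouse hippocampus after subarachnoid hemorrhage (SAH, bleeding into the fluid-filled space around the brain). The 6 genes were chosen by gene family and selected on earlier results for their counts in SAH against control mice, so their values in SAH are given as a description without a p-value. Their comparison between both kinds of control mice did not enter that choice and was tested.

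EGR proteins are zinc finger transcription factors that bind a GC-rich element in DNA. Neurons make their transcripts within minutes of synaptic activity as part of the immediate-early response, which runs through the serum response factor SRF with its ELK partners and through CREB. NAB1 and NAB2 have no DNA-binding domain of this kind. They attach to EGR1, EGR2 and EGR3 and repress transcription, in part by recruiting the NuRD complex through CHD4, and Nab2 is itself a known EGR target.

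All groups were young adult male mice of a strain that the study's methods spell C56BL/6J, read here as C57BL/6J, and 1 library of both whole hippocampi was made per mouse. In SAH mice (n = 4, mice 1 to 4) a filament was passed through the carotid artery under isoflurane until it punctured the circle of Willis on 1 side, and a fall in cortical blood flow was required for a mouse to be kept. In Sham mice (n = 3, mice 5 to 7) the filament was withdrawn before it punctured the artery, and Naive mice (n = 3, mice 8 to 10) had no surgery. Tissue was taken after CO2 euthanasia, 4 days after surgery in operated mice. Sham and Naive mice together are the pooled control (n = 6), and all mice shared the strain, the sex and the way they were killed. The model is a single time point of whole tissue, in which fewer cells of a type and less RNA per cell cannot be told apart.

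Totals ran from 19743388 to 27254655 counts per mouse and overlapped between groups. By a chi-square of the counts per gene between libraries, SAH mouse 3 stood apart from each other mouse (15.3 to 27.0) and SAH mouse 4 less so (9.50 to 16.5), where all other pairs had 3.62 to 9.84. Values are CPM (normalised read counts, in which the TMM-adjusted total of each mouse is brought to the same size). A gene was called when its edgeR adjusted p was under 0.10. All 6 genes passed the filter on low counts, and the lowest count among them was 8, for Egr2 in SAH mouse 3. The summed CPM of 5 markers of excitatory neurons, the main cells of the hippocampus, was between 8668 and 9325 in SAH, 8179 and 9242 in Sham and 8676 and 8876 in Naive mice.

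Egr1, Egr2 and Egr4 were lower in every SAH mouse than in every control mouse, and Egr3, Nab1 and Nab2 overlapped between the groups. Relative to pooled control, Egr2 was 4.01-fold lower, Egr1 1.90-fold lower and Egr4 1.82-fold lower. Egr3, the EGR factor with the second highest level per length, differed by 1.03-fold. The 2 corepressors differed by at most 1.10-fold.

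Egr1, the factor most used as a marker of recent neuronal activity, had 132, 142, 73.4 and 114 CPM in SAH mice 1 to 4. It had 226, 178 and 211 CPM in Sham mice 5 to 7 and 239, 271 and 195 CPM in Naive mice 8 to 10. The highest SAH mouse lay below the lowest control mouse, and SAH mouse 3 was the lowest of all. The mean was 116 ± 30.3 CPM in SAH (SD, n = 4) and 220 ± 32.9 CPM in control (SD, n = 6), a log2 fold change of −0.93 with a standard error (SE) of 0.16. Both exons lie at chr18:35020861-35024610 of mm9, on the plus strand.

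Egr2, known best for its part in hindbrain patterning and in Schwann cell myelination, was the scarcest of the 6 genes. SAH mice 1 to 4 had 2.13, 3.35, 0.404 and 1.76 CPM, from 44, 91, 8 and 44 counts. Sham mice 5 to 7 had 7.72, 5.55 and 7.2 CPM, and Naive mice 8 to 10 had 9.32, 11.4 and 6.45 CPM. Every SAH mouse was below every control mouse, and the mice of the SAH group differed among themselves more for Egr2 than for any other of the 6 genes, with a coefficient of variation of 63.4%. At 8 counts, the value in SAH mouse 3 has an exact Poisson 95% interval from 0.174 to 0.796 CPM, which covers counting error only and lies below the value of each other mouse. The log2 fold change was −2.0 (SE 0.33) against pooled control. The gene has 2 exons at chr10:67000617-67004936 of mm9, on the plus strand.

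Egr4, a member of the family that lacks the site through which NAB proteins bind, had 17.3, 24.1, 16.5 and 14.0 CPM in SAH mice 1 to 4. Sham mice 5 to 7 had 29.8, 31.1 and 34.5 CPM and Naive mice 8 to 10 had 36.7, 35.7 and 29.5 CPM. The groups did not overlap, and here SAH mouse 4 and not SAH mouse 3 was the lowest. The log2 fold change was −0.87 (SE 0.12). The gene has 2 exons at chr6:85461116-85463536 of mm9, on the minus strand.

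Egr3, a factor induced by activity and needed for muscle spindle development, had 119, 118, 122 and 132 CPM in SAH mice 1 to 4. Sham mice 5 to 7 had 123, 121 and 129 CPM and Naive mice 8 to 10 had 127, 136 and 120 CPM. SAH mouse 4 was above 5 of the 6 control mice, 2 SAH mice lay just below the lowest control mouse, and the groups overlapped. The log2 fold change was −0.04 (SE 0.05), with an approximate 95% interval from −0.13 to 0.05. The gene has 4 exons at chr14:70477252-70482420 of mm9, on the plus strand.

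Nab1 had 31.2, 32.3, 24.6 and 33.2 CPM in SAH mice 1 to 4, against a range from 31.5 to 34.9 CPM in the 6 control mice. Nab2 had 41.3, 43.3, 33.9 and 42.6 CPM in SAH mice, against 38.2 to 46.5 CPM in control. For both corepressors, SAH mouse 3 alone was clearly below the control mice, SAH mouse 1 was just below them for Nab1, and the others were among them. The log2 fold changes were −0.14 (SE 0.07) for Nab1 and −0.07 (SE 0.07) for Nab2, with approximate 95% intervals from −0.28 to 0.01 and from −0.22 to 0.07. Without SAH mouse 3 they were −0.05 and 0.00. Nab1 has 8 exons at chr1:52512693-52557292 and Nab2 7 exons at chr10:127097974-127103759, both on the minus strand of mm9. The last 70 bases of Nab2 lie opposite the end of Stat6, whose reads the stranded counting kept apart.

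**Figure D1:**
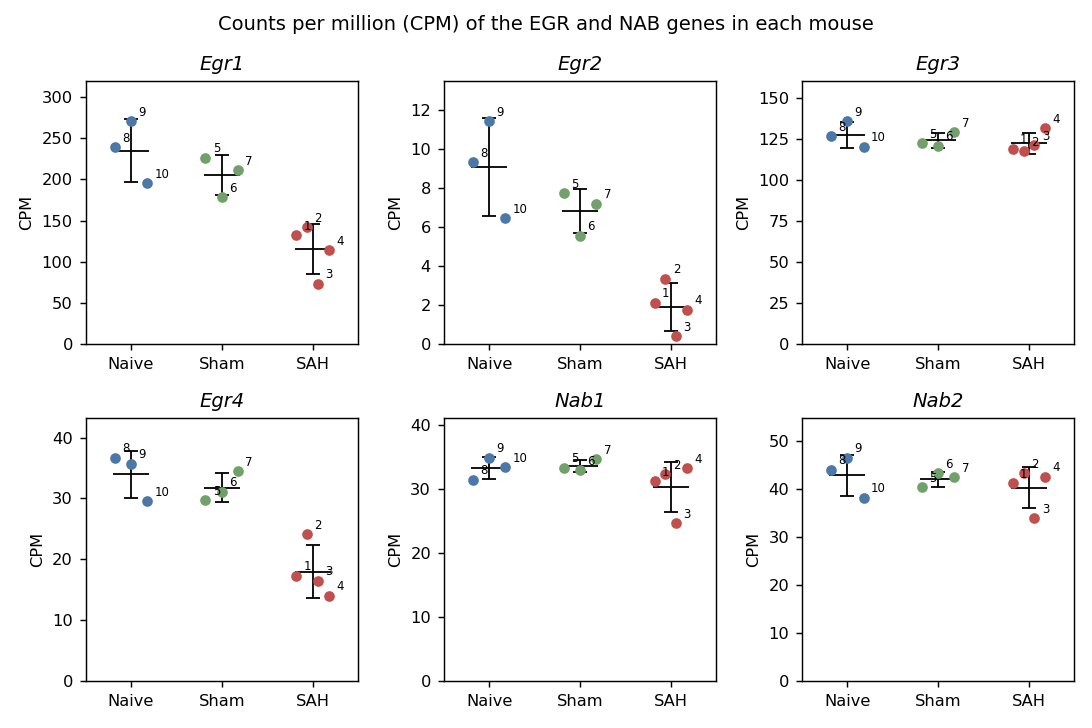
CPM of each of the 6 genes (vertical axes, each starting at 0) in Naive, Sham and SAH mice, 1 point per mouse with its number, and the mean with SD as bars (n = 3, 3 and 4). The SAH points lie below all control points for Egr1, Egr2 and Egr4, and SAH mouse 3 is the lowest mouse for all but Egr3 and Egr4.

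Of the 6 genes, 3 were called lower and 0 higher in SAH than in pooled control, where 1.54% of the 14993 genes tested were called lower and 3.13% higher. The same 3 genes had no overlap, the highest SAH mouse lying under the lowest control mouse, which held for 2.37% of genes. Nothing is read from these counts, since this comparison was used to choose the genes.

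The difference was of like size against each kind of control mouse. Egr1, Egr2 and Egr4 were called lower against Sham, with log2 fold changes of −0.83 (SE 0.18), −1.79 (SE 0.37) and −0.82 (SE 0.15), where 0.192% of 15134 genes were called lower. Against Naive the same 3 genes were called lower, with −1.02 (SE 0.18), −2.20 (SE 0.37) and −0.91 (SE 0.15), where 0.965% of genes were called lower. Egr3, Nab1 and Nab2 were between −0.15 and −0.02 in both comparisons. Both comparisons use the SAH mice on which the genes were selected, so that these calls too are descriptions, and nothing is read from them. The calls against Sham rested on few mice: without SAH mouse 4 or without any 1 of the Sham mice 0 of the 6 genes was called, and without any 1 of the Naive mice, which share the estimate of the spread, Egr4 alone was. With the Sham and SAH mice fitted on their own the count was 0, with log2 fold changes of −0.83, −1.80 and −0.82, close to those above.

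Sham surgery without bleeding was compared with no surgery in the same fit. Of the 6 genes 0 were called, at an edgeR adjusted p of 0.9998 for each, and 1 of 15134 genes was called in all (0.00661%), a rise of Slc13a4. Of all genes 305 had an unadjusted p under 0.05 and DESeq2 called 2, and of the 6 genes 0 had either. The largest difference was that of Egr2, 1.33-fold lower in Sham with a log2 fold change of −0.41 (SE 0.36). Its approximate 95% interval ran from −1.10 to 0.29, which takes in a 2-fold lower level in Sham at 3 mice against 3. For Egr1 the value was −0.20 (SE 0.19) with an interval from −0.57 to 0.18, and for Egr4 −0.10 (SE 0.15) with an interval from −0.40 to 0.20. Egr3, Nab1 and Nab2 had intervals from −0.15 to 0.08, from −0.17 to 0.21 and from −0.21 to 0.16. For Egr1, the Sham mean of 205 ± 24.5 CPM (SD, n = 3) lay inside the Naive range from 195 to 271 CPM.

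**Figure D2:**
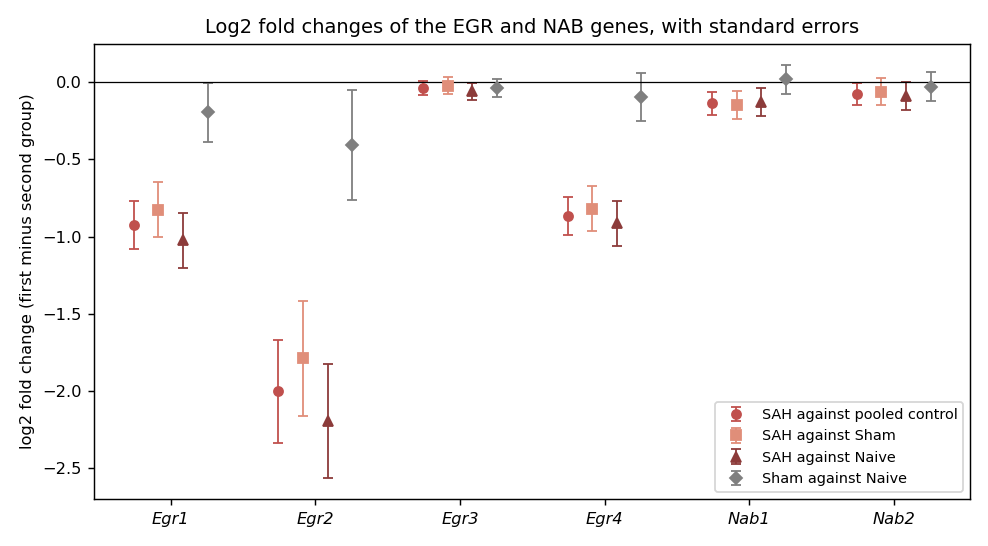
Log2 fold change (vertical axis) of the 6 genes in 4 comparisons, with bars of 1 standard error derived from the edgeR test. Egr1, Egr2 and Egr4 lie between −0.82 and −2.20 in the 3 comparisons with SAH, and all Sham against Naive values lie between −0.41 and 0.02.

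Levels were compared between genes as CPM per kilobase of exon. In control mice the order was Egr1 with 71.6 ± 10.7, Egr3 with 31.5 ± 1.5, Nab2 with 16.5 ± 1.13, Egr4 with 15.7 ± 1.49, Nab1 with 6.58 ± 0.247 and Egr2 with 2.68 ± 0.716 (mean ± SD, n = 6). Nab2 and Egr4 overlapped in this order, and each other pair of neighbours was apart in all mice. In SAH mice Egr1 with 37.6 ± 9.88 and Egr3 with 30.6 ± 1.59 overlapped (SD, n = 4). Nab2 followed with 15.6 ± 1.67, Egr4 with 8.56 ± 2.05, Nab1 with 5.97 ± 0.766 and Egr2 with 0.644 ± 0.408. Egr4 and Nab2, which overlapped in control mice, were apart in SAH mice.

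The proportions among the 6 transcripts followed from these levels. Per length, Egr3 stood at 0.386 to 0.521 of Egr1 in control mice and at 0.693, 0.635, 1.27 and 0.885 of it in SAH mice 1 to 4. In SAH mouse 3 Egr3 was thus above Egr1, which was so in no other mouse. Egr1 stood at 3.45 to 4.88 times Nab2 in control and at 2.68, 2.75, 1.81 and 2.25 times Nab2 in SAH mice 1 to 4. The ratio of Egr1 to Egr2 was 22.9 to 31.0 in control and 60.0, 41.0, 175 and 62.7 in SAH mice 1 to 4, so that Egr2 was lower in proportion to Egr1 in each SAH mouse. The groups did not overlap in any of these ratios, which restate the levels used to choose the genes.

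**Figure D3:**
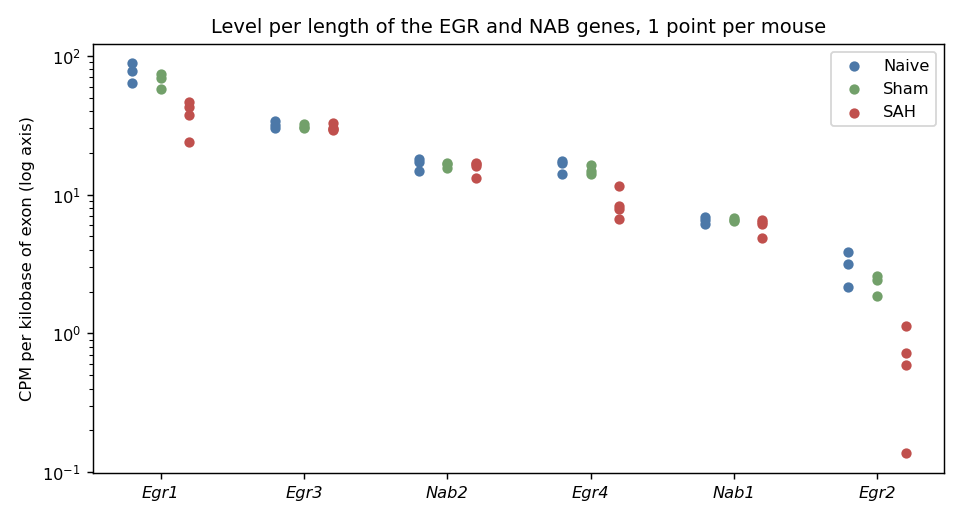
Level of each gene in CPM per kilobase of exon (vertical log axis), 1 point per mouse coloured by group. The control order is Egr1, Egr3, Nab2 and Egr4, Nab1, Egr2, while the SAH points of Egr1 reach down among those of Egr3.

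Egr1 and Egr2 put the 10 mice in the same order. The Pearson correlation of their log2 CPM over the 10 mice was 0.992 and the Spearman correlation 1.0, and with each group's mean taken off the Pearson correlation was 0.972. Egr4 was less alike, with a Pearson correlation to Egr1 of 0.891, which was 0.496 with the group means taken off. Egr3 had 0.367 to Egr1 and 0.202 to Egr4. Over the 6 control mice alone, the correlation with Egr1 was 0.991 for Egr2, 0.647 for Egr4 and 0.813 for Egr3. Without SAH mice 3 and 4, the mice farthest from the median of Egr1, that of Egr1 and Egr2 was 0.983.

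Nab1 and Nab2 had a Pearson correlation of 0.778 to each other over the 10 mice and of 0.784 and 0.675 to Egr1. These were lower without SAH mouse 3. Without it the correlation of Nab1 and Nab2 was 0.15, that of Egr1 and Nab1 0.44 and that of Egr1 and Nab2 0.232. Over the 6 control mice alone the same pairs had 0.117, 0.196 and 0.563. Without SAH mice 3 and 4, Egr1 had 0.597 to Nab1 and 0.311 to Nab2. All these correlations are descriptions over mice that share their groups.

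The genes most alike to each of the 6 over the 10 mice were ranked by the same Pearson correlation over all genes tested. For Egr1 they were Egr2, Arc (0.989) and Lonp1 (0.979), and for Egr2 they were Egr1, Arc (0.990) and Adamts4 (0.979). For Egr4 they were Serinc5 (0.975), Mag (0.974) and Junb (0.968). Arc is a synaptic activity-regulated gene, Mag encodes a myelin glycoprotein and Junb an AP-1 subunit. For Egr3 the ranking gave Paxip1 (0.951), Pkn2 (0.928) and Vezf1 (0.893), for Nab1 Amz2 (0.972), Ankrd34a (0.970) and Abcf1 (0.968), and for Nab2 Tmod3 (0.981), Ccdc137 (0.974) and Upf1 (0.963). With the group means taken off, Egr1 was followed most closely by Impdh1 (0.990), Csrp2bp (0.980) and Fam179b (0.977), and Egr2 by Elavl3 (0.988), Csk (0.986) and Zbtb41 (0.976). Egr3 then had Pkn2 (0.963), Paxip1 (0.960) and Lsg1 (0.957), and Egr4 had Flad1 (0.961), Serinc5 (0.950) and Sdhaf2 (0.941). Nab1 then had Coa6 (0.985), Cdc5l (0.983) and Rfc1 (0.982), and Nab2 had Tmod3 (0.979), Paqr9 (0.975) and Ccdc137 (0.974). All are the highest values among 14993 genes over only 10 mice. With Spearman in place of Pearson correlation, most of the genes named without group means taken off were others.

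**Figure D4:**
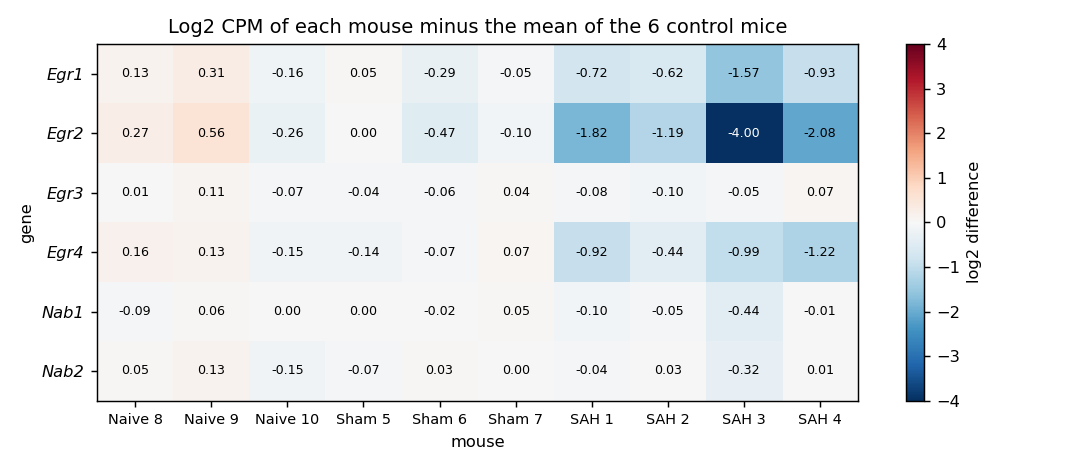
Difference in log2 CPM between each mouse and the mean of the 6 control mice, for each of the 6 genes (rows) and 10 mice (columns), with the value in each cell and blue for lower. SAH mouse 3 has the lowest values of Egr1 (−1.57) and Egr2 (−4.0), and SAH mouse 4 that of Egr4 (−1.22).

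The bases upstream of the annotated start are shown for Egr2 and Egr4, which were lower in SAH, and for Egr3 and Nab1, which overlapped, so that their elements can be compared. Each is the 300 bases before the start of the counted gene model, read from mm9 in the direction of the gene. Capitals mark matches on either strand to the CArG box bound by SRF, to the EGR elements GCGTGGGCG and GCGGGGGCG, and to TGACG, the shortened form of the cAMP response element TGACGTCA, which holds it.
Egr2, chr10:67000317-67000616, plus strand: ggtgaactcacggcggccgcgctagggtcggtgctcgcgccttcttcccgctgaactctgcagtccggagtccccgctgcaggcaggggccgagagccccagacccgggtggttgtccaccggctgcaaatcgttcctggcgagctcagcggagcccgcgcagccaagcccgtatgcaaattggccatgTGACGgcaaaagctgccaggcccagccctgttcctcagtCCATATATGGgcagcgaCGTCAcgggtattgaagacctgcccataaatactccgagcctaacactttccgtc
Egr4, chr6:85463537-85463836, minus strand: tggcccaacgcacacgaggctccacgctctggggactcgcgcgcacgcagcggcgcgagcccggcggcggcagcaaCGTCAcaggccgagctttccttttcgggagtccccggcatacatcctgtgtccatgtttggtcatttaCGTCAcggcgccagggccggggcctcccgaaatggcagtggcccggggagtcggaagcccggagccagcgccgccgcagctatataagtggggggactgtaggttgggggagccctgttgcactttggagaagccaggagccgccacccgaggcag
Egr3, chr14:70476952-70477251, plus strand: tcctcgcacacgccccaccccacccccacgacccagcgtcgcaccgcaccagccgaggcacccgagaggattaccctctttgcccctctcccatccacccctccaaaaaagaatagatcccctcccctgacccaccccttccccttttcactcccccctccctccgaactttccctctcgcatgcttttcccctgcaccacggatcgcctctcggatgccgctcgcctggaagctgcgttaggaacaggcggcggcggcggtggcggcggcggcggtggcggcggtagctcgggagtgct
Nab1, chr1:52557293-52557592, minus strand: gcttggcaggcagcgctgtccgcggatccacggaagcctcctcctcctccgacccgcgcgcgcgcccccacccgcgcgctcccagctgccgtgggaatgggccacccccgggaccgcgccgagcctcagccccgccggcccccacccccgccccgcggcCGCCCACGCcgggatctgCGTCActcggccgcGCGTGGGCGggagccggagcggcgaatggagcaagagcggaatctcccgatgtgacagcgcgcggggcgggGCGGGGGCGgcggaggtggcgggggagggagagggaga

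In the 500 bases upstream, Egr2 held CArG boxes that begin 375 and 72 bases before the start and TGACG at 111 and 55 bases. Egr4 held no CArG box, and TGACG at 224 and 156 bases. Nab1, which overlapped between groups, held TGACG at 123 bases, and Egr3 held none of these elements in the window. Each window rests on the start of the counted gene model, and other starts were not searched. Against a separate mm9 annotation, 2 of the 4 Egr3 exons and 0 of the 2 Egr4 exons matched at both ends. Over the same window in 14982 tested genes, 2.3% held a CArG box, 35.8% TGACG and 3.11% the full cAMP response element, which none of the 6 genes held.

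The upstream window of Egr1 held 5 CArG boxes, beginning 407, 369, 353, 105 and 83 bases before the start, and TGACG at 135 and 66 bases. Of the 6 genes, the EGR elements were matched in the corepressors alone. Nab1 held GCGTGGGCG at 141 and 109 bases and GCGGGGGCG at 38 bases, and Nab2 held GCGTGGGCG at 271 bases. GCGTGGGCG was in 1.33% of windows, GCGGGGGCG in 6.11% and either in 7.31%. A match says only that these letters are there, and the windows were GC-rich, with 60.8% to 73.0% G and C in the 6 genes against a median of 55.0% over all windows.

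Of 34 other listed immediate-early and activity-regulated genes, 33 were tested, 13 fell in SAH against pooled control and 1 rose, beside the 1.54% and 3.13% of all genes. Their median log2 fold change was −0.19, against −0.002 for all genes. This list and those below were chosen with earlier results of these data known. Their calls and adjusted p in SAH are thus descriptions and not independent tests. Of the 13, Fos, an AP-1 subunit, fell by 1.57 on the log2 scale (SE 0.23, edgeR adjusted p = 0.00375), with 11.3 ± 4.33 CPM in SAH (SD, n = 4) and 34.1 ± 8.77 CPM in control (SD, n = 6). Npas4, a factor induced by calcium entry in neurons, fell by 1.33 (adjusted p = 0.00961), and Arc, an organiser of AMPA receptor endocytosis, fell by 1.13 (adjusted p = 0.0145). Ier2 (−0.94), Fosb (−0.86), Nr4a1 (−0.73), Dusp1 (−0.71) and Junb (−0.70) fell too, at adjusted p between 0.00597 and 0.0322. Egr2 thus had a lower log2 fold change than any gene of the list, and Egr1 and Egr4 lay near Ier2 and Fosb. The 1 gene that rose was Ier3, by 0.70 (adjusted p = 0.0271). The 19 others, with Jun at −0.17, Bdnf at −0.19 and Homer1 at −0.05, did not pass the test. The number that fell was 8 without SAH mouse 4 or without Naive mouse 8. Against Sham 5 fell and 0 rose, where 0.192% of all genes fell and 0.529% rose. Against Naive 11 fell and 1 rose, where 0.965% of all genes fell and 2.03% rose. Between Sham and Naive 0 were called by edgeR or DESeq2, and 5 had an unadjusted p under 0.05, where 305 of 15134 genes had one. The log2 fold changes of the list between Sham and Naive had a median of −0.10 and a minimum of −0.81, and 23 of the 33 were below 0.

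**Figure D5:**
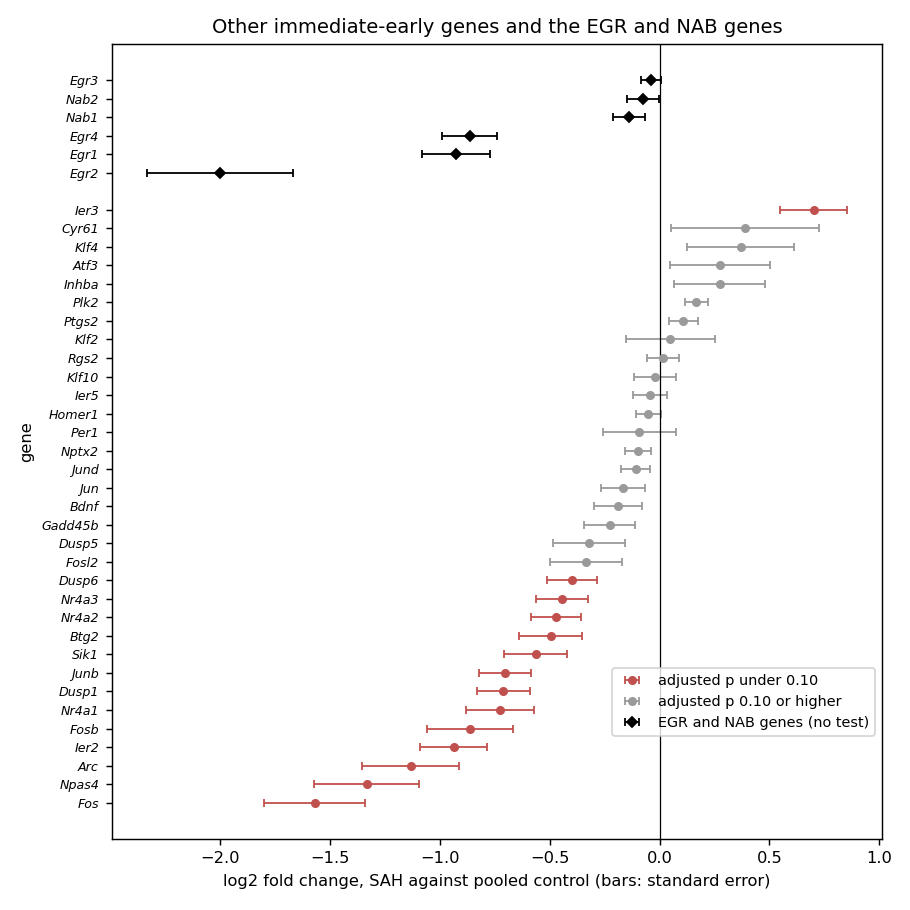
Log2 fold change in SAH against pooled control (horizontal axis, bars of 1 standard error) of the 33 immediate-early genes tested, red where the adjusted p was under 0.10, and of the 6 EGR and NAB genes in black at the top. The list runs from Fos (−1.57) to Ier3 (0.70), and Egr3, Nab1 and Nab2 lie close to 0.

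In SAH against pooled control edgeR called 701 of the 14993 genes tested and DESeq2 called 1030, and 2549 had an unadjusted p under 0.05 by edgeR. Of 24 factors and kinases upstream of the EGR genes, all tested, 0 were called by edgeR (4 had an unadjusted p under 0.05, and DESeq2 called 1), and their log2 fold changes lay between −0.14 and 0.32. Srf was at −0.10, Elk1 at 0.15 and Creb1 at −0.05. Of 14 NuRD subunits, through which NAB proteins act, 0 were called by edgeR (4 had an unadjusted p under 0.05, and DESeq2 called 1), and the values lay between −0.17 and 0.11, with Chd4 at −0.02. Of 9 tested factors of GC-rich elements out of 10, Maz alone passed the test, lower by 0.18 on the log2 scale (adjusted p = 0.0294). With so few genes, counts of 0 or 1 are near those of all genes, and nothing particular to these lists is read from them.

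Genes described as EGR targets moved in both directions. Of 16 listed, 3 rose and 2 fell against pooled control, beside the 3.13% and 1.54% of all genes, with a median of 0.003. Against Sham 1 rose and 0 fell, beside 0.529% and 0.192% of all genes, and against Naive 1 rose and 2 fell, beside 2.03% and 0.965%. Against pooled control Icam1, an adhesion molecule of activated endothelium, rose by 0.80 (adjusted p = 0.0131), Fn1, the matrix protein fibronectin, by 0.69 (adjusted p = 0.0166) and Psmb9, an immunoproteasome subunit, by 1.10 (adjusted p = 0.0181). Arc, which is also on the immediate-early list, and Syn1, a synaptic vesicle protein (−0.22, adjusted p = 0.0422), fell. Also against pooled control, where 3.13% of all genes rose, edgeR called 2 of 4 endothelial markers, 2 of 4 of pericytes and smooth muscle, 3 of 4 of the leptomeninges and, of 5 for astrocytes, Gfap higher. Of 5 microglia markers it called Csf1r alone higher, by 0.29 (edgeR adjusted p = 0.026), with 1 of the 5 called higher against Naive and 0 against Sham. Of the endothelial markers edgeR called 0 against Sham and 0 against Naive, while DESeq2 called 1 in each of the 3 comparisons. Of the markers of pericytes and smooth muscle edgeR called 0 against Sham and 2 against Naive, while DESeq2 called 2 in each of the 3. Of the leptomeningeal markers edgeR called 2 higher against Sham, where 0.529% of all genes rose, and 3 against Naive, where 2.03% did. The part of such cells in these values was not tested.

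Of 7 tested targets of EGR2 in Schwann cells, Mag (−0.68, adjusted p = 0.00235) and Mbp (−0.59, adjusted p = 0.00329), which oligodendrocytes also make, fell against pooled control, where 1.54% of all genes did, with a median of −0.45 over the 7. Both also fell against Sham alone and against Naive alone, where 0.192% and 0.965% of all genes fell. Prx, which encodes the Schwann cell protein periaxin, did not pass the test (−0.31, adjusted p = 0.536), with 0.629 CPM in SAH and 0.789 CPM in control on average. Against pooled control and against Naive all 5 oligodendrocyte markers were called lower by edgeR, and against Sham 4 of the 5. They summed to 2163 to 2780 CPM in SAH, 3137 to 4311 in Sham and 3679 to 3958 in Naive mice. Whether these moved with Egr2 for a shared reason was not tested.

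Markers of neighbouring tissue also differed between mice. The 5 choroid plexus markers summed to 100, 212, 1212 and 853 CPM in SAH mice 1 to 4, to 208, 55.5 and 818 in Sham mice 5 to 7 and to 43.1 to 65.7 in Naive mice, with the highest sum in SAH mouse 3. Against pooled control 0 of the 5 were called by edgeR or DESeq2, with 2 at an unadjusted p under 0.05, and against Naive edgeR called 2 higher, where 2.03% of all genes were. The part of such tissue in the values of the EGR genes was not tested. Without SAH mouse 3 the log2 fold changes against pooled control were −0.76 for Egr1, −1.69 for Egr2 and −0.82 for Egr4, and without SAH mouse 4 they were −0.92, −1.95 and −0.76. Of the neuronal markers, against pooled control 0 of 5 for excitatory neurons were called by edgeR or DESeq2, with 1 at an unadjusted p under 0.05, and of 4 for dentate granule cells 1 was called, higher in SAH, where 3.13% of all genes were. Of 5 interneuron markers 1 was called, Sst, lower by 0.27 on the log2 scale (edgeR adjusted p = 0.0333), with every SAH mouse below the control mice, where 1.54% of all genes were called lower. By edgeR 0 of the granule cell markers were called against Sham or against Naive, and of the interneuron markers 0 against Sham and 1 against Naive, lower. Against Sham DESeq2 called 1 of the excitatory markers and edgeR 0.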

How the data were processed

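RNA-seq of 10 mice was analysed, 1 library each. The authors aligned stranded read pairs to mm9 with STAR and counted them on exons with featureCounts 1.6.2, leaving out reads of several places or genes. The deposited values are these raw counts per gene name. Read alignment was not repeated here. Upstream sequence was read from the start of the counted gene models. Of 25 exons of the 6 genes, 24 shared an end with a separate mm9 annotation and 19 shared both ends. edgeR 4.0.16 in R 4.3.3 was run on the counts with TMM scaling and filterByExpr (minimum count 10). Its quasi-likelihood p-values were adjusted by Benjamini-Hochberg over all genes at a threshold of 0.10, with SAH against pooled control in a fit of 2 groups and the other comparisons in a fit of 3. The fits were tested on simulated data. DESeq2 1.42.0 and other scalings, filters and left-out mice were alternatives. Intervals and floors cover counting error only, apart from those of fold changes. Standard errors of fold changes were derived as the absolute log2 fold change over the square root of the edgeR F statistic. Their intervals used the normal distribution, which makes them somewhat too narrow for so few mice. List genes are named where called, up to 8 by size, and likeness lists the top 3 genes; list genes given beside these were chosen after their values were seen. The 6 genes and all lists were chosen with earlier results of these data known. A listed gene is not reported here.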

Additional observations from a re-analysis of the deposited data

How the results depend on the processing

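The calls of Egr1, Egr2 and Egr4 in SAH are descriptions under every setting, and Egr2 was not tested where at least 10 counts in every mouse were required. Of 428 values of the 6 genes' log2 fold changes under the alternatives, few turned in direction, all of them small values of genes that were not called. Between Sham and Naive this was so for 5 values, each with 1 mouse left out: Egr3 ran from −0.079 to 0.009, Nab1 from −0.022 to 0.053 and Nab2 from −0.106 to 0.032. Against Sham, Egr3 reached 0.011 without Sham mouse 7 and Nab2 0.013 without SAH mouse 3.

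Against Sham, the count of the 6 genes called lower was 1 by a robust fit, 1 at an adjusted p under 0.05, 0 with only the 2 groups compared and 0 to 3 with each mouse left out. Genes called against pooled control numbered 701, with 369 at an adjusted p under 0.05 and 308 to 1093 with each mouse left out. Against Sham they numbered 109, with 302 by DESeq2, 182 without a filter, 12 with only the 2 groups, 49 at 0.05 and 6 to 215 with each mouse left out. Against Naive they numbered 453, with 744 by DESeq2, 282 with only the 2 groups, 260 at 0.05 and 109 to 683 with each mouse left out. Between Sham and Naive 1 gene was called, with 2 by DESeq2, 3 with only the 2 groups and 0 to 1 with each mouse left out. Immediate-early genes called lower numbered 8 to 13, and higher 1 to 2, with each mouse left out, and higher 2 by DESeq2 and 2 with library size alone. The causes were not tested. Counting depth limits Egr2 most. With Spearman in place of Pearson correlation, 3 of the 18 most alike genes were shared. No paired analysis applied, since by the study's methods each mouse was assigned to its group at random.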
